A study of Mus musculus with 6 samples.

Results

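Midkine (Mdk) and pleiotrophin (Ptn) are secreted growth factors that bind heparin, and the receptors described with them are Ptprz1, the syndecans Sdc1, Sdc2, Sdc3 and Sdc4, Ncl, Lrp1 and Alk. The 10 genes were taken by the gene name that the array files give each probe, and 16 probes carry these names. Of the 10, 9 were well above background on all 6 arrays and were tested among 22998 genes, while Alk was not tested. The family was chosen by its measured difference between antagomir and control arrays, which was already in view. Its values are therefore given as a description. Counts of members by p-value stand beside the shares of all genes, and nothing is read from them.

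The study measured total RNA of hearts from male C57BL/6 mice, 8 weeks old, taken 21 days after myocardial infarction by ligation of the left anterior descending coronary artery. One group of 3 samples came from mice injected by tail vein on 3 consecutive days, as a pretreatment, with an antagomir of miR-433 at 80 mg/kg. Antagomirs are chemically modified antisense oligonucleotides that inhibit a microRNA. The other group of 3 came from mice given a scrambled control, so every heart was infarcted. The study asked if miR-433 inhibition prevents scarring of the heart. The labels state neither the region of the heart nor whether each sample is a separate mouse, so errors describe the spread between these samples only.

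Midkine and pleiotrophin make up a small family of their own. Both are abundant in the embryo, scarce in most adult tissues and made again after injury. They attach to sulphated sugar chains on cell-surface proteoglycans. Ptprz1, a tyrosine phosphatase that carries chondroitin sulphate, is inhibited when pleiotrophin binds it. The syndecans are membrane proteoglycans with heparan sulphate chains. Lrp1 is an endocytic receptor that takes up midkine among many other ligands, and nucleolin (Ncl), mostly a protein of the nucleolus, also binds both factors at the cell surface. Alk is a receptor tyrosine kinase whose role as a direct receptor is disputed.

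The sequences below are 1 probe of each ligand and the mature forms of the blocked microRNA, shown so that a reader sees letters the array reads for each ligand. The midkine probe, A_66_P107379, is a further probe of the gene and not the one behind its leading values. It lies on the minus strand of mm9 at chr2:91770245-91771006. Its 60 bases are drawn from 762 bases of genome, so it joins stretches that are apart in the genome. The pleiotrophin probe, A_55_P2164629, gave that gene's leading values and lies on the minus strand of mm9 at chr6:36691376-36691435. The microRNA sequences are from RefSeq (GRCm38.p6, plus strand, chr12:109591729-109591750 for the 5p form and chr12:109591781-109591802 for the 3p form), and capitals mark the seed, bases 2 to 8. The labels do not say which form the antagomir was made against.
Mdk probe: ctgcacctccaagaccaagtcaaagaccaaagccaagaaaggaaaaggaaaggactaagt
Ptn probe: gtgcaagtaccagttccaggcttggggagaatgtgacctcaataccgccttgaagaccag
mmu-miR-433-5p: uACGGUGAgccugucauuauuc
mmu-miR-433-3p: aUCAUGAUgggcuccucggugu
The 7 bases that pair with the 3p seed, ATCATGA, were in 0 of the 16 member probes and in 0.516% of all 55661 probes. Those that pair with the 5p seed, TCACCGT, were in 0 of the 16 and in 0.101% of all probes. These counts concern the probe letters only.

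A level below is a probe's log2 processed signal after subtraction of that array's 75th percentile. A difference is the antagomir mean less the control mean of such levels, in log2 units, with the standard error (SE) from limma, and n = 3 per group throughout. The share of spots well above background was 55.2% to 73.6% for the antagomir arrays, array 3 having the most, against 57.7% to 58.5% for the control arrays. All arrays lay on 1 slide and no gene spot was saturated. The heart label was borne out by 10 of 10 cardiomyocyte markers above background, whose summed signal was 4594 to 5011 times the array's 75th percentile on antagomir arrays and 3861 to 4479 times on control arrays. The fibroblast markers, also 10 of 10 above background, summed to 394 to 594 times on antagomir arrays and 787 to 1069 times on control arrays. In bulk RNA, fewer cells of a type and less RNA per cell cannot be told apart.

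Both ligands were much lower in the hearts given the antagomir. Midkine differed 3.77-fold and pleiotrophin 8.42-fold. In neither gene did any antagomir array reach the lowest control array. The receptors differed less: Sdc1 was 2.63-fold lower, Lrp1 1.74-fold and Sdc2 1.54-fold, while Sdc3, Sdc4, Ptprz1 and Ncl overlapped between the groups.

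Mdk had levels of −0.84, −1.15 and −0.90 on antagomir arrays 1, 2 and 3, against 0.85, 1.47 and 0.53 on control arrays 1, 2 and 3. The antagomir arrays lay close together and the gap to the lowest control was 1.37. The means were −0.96 ± 0.16 with the antagomir and 0.95 ± 0.48 in controls (SD), a difference of −1.91 (SE 0.27, 95% interval −2.57 to −1.26). The probe with this value, A_55_P1971897, is at chr2:91769993-91770052 of mm9. On the probe shown above the difference was −1.71 (SE 0.48), with levels of −1.96, −1.87 and −0.77 on the antagomir arrays and −0.088, 1.0 and −0.39 on the control arrays. Antagomir array 3 lay nearer the controls on this probe, but the groups still did not overlap.

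Ptn had levels of −2.51, −2.05 and −1.51 on antagomir arrays 1, 2 and 3, against 1.34, 1.69 and 0.11 on control arrays 1, 2 and 3. Both groups were spread more widely than for Mdk, and control array 3 was the lowest control. The means were −2.03 ± 0.50 with the antagomir and 1.05 ± 0.83 in controls (SD), a difference of −3.07 (SE 0.47, 95% interval −4.23 to −1.92). The processed signals behind these levels were 62.9, 87.4 and 139 on the antagomir arrays and 1115, 1477 and 455 on the control arrays. The other probe, at chr6:36665663-36665722 of mm9, gave −2.30 (SE 0.53), again without overlap. Of all 22998 genes, 23 had a difference as low as that of Ptn or lower, and 0.465% one as low as that of Mdk.

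Ptn lay further below its control level than Mdk did. Relative to each gene's control mean, Ptn minus Mdk was −1.77, −1.0 and −0.71 on antagomir arrays 1, 2 and 3, and 0.39, 0.12 and −0.51 on control arrays 1, 2 and 3. The means were −1.16 ± 0.55 and 0 ± 0.46 (SD). All antagomir arrays were below all controls, though antagomir array 3 and control array 3 were close. The genes lay closer together on their further probes, with differences of −2.30 for Ptn and −1.71 for Mdk. The same held within the slide row of all antagomir arrays and control array 3, with −2.14 for Ptn and −1.49 for Mdk.

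**Figure D1:**
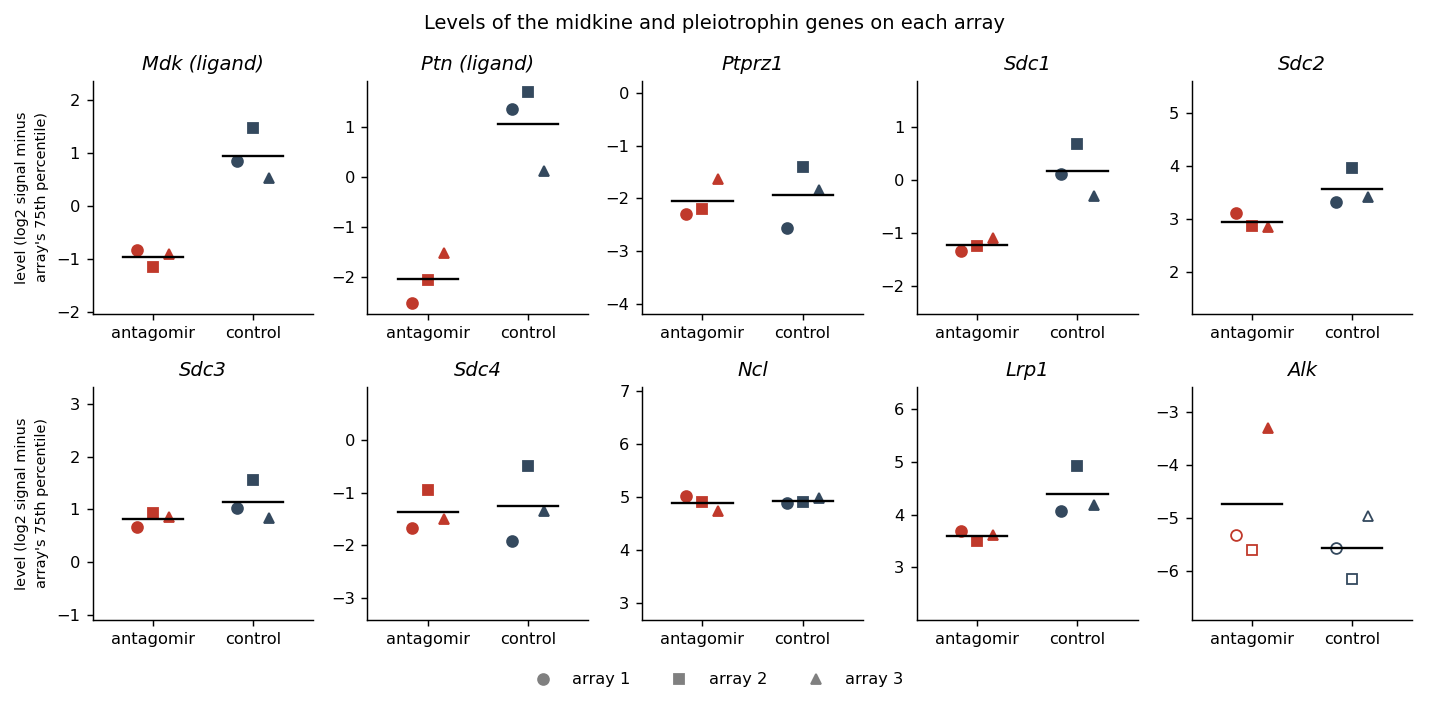
Level of each of the 10 genes on each array, as log2 signal minus the array's 75th percentile, with antagomir arrays (red) left of control arrays (blue), marker shapes for arrays 1 to 3 and bars for group means; open Alk symbols were not well above background. Mdk, Ptn, Sdc1, Sdc2 and Lrp1 do not overlap between the groups, and control array 2 is the highest array for 8 of the genes.

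Among the syndecans, Sdc1, the form typical of epithelia and plasma cells, differed the most. Its levels were −1.33, −1.25 and −1.1 on antagomir arrays 1, 2 and 3, against 0.12, 0.69 and −0.31 on control arrays 1, 2 and 3. The difference was −1.39 (SE 0.27), and 1.12% of all genes were as low or lower. The plasma and B cell markers other than Sdc1 overlapped between the groups in all 7 cases, as most genes did. Among all genes, 6.93% were lower without overlap and 8.78% higher. Jchain, the joining chain of secreted antibodies, was at −3.21, 1.52 and −3.87 on antagomir arrays and 0.67, −3.07 and 1.82 on control arrays. Jchain was picked after its value was seen, and its arrays were widely spread within both groups. The part of plasma cells in the Sdc1 values was not tested.

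Sdc2, the syndecan of mesenchymal cells, had levels of 3.11, 2.85 and 2.85 on antagomir arrays, against 3.31, 3.96 and 3.42 on control arrays. The groups were apart by 0.20 at their nearest arrays, and the difference was −0.62 (SE 0.21). Sdc3, known in the nervous system as a receptor of pleiotrophin, had levels of 0.67, 0.93 and 0.86 on antagomir arrays and 1.03, 1.56 and 0.84 on control arrays. Control array 3 lay among the antagomir arrays, and the difference of −0.32 (SE 0.22) was −0.11 without control array 2.

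Sdc4, which joins integrins in focal adhesions, had levels of −1.67, −0.96 and −1.50 on antagomir arrays, against −1.92, −0.49 and −1.35 on control arrays. The groups overlapped, with a control array at each end. The difference was −0.12 (SE 0.40) with a 95% interval of −1.09 to 0.86, and it was 0.26 without control array 2. The 4 syndecans thus ran from a 2.63-fold to a 1.09-fold lower level.

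Lrp1 had levels of 3.68, 3.50 and 3.61 on antagomir arrays, against 4.07, 4.92 and 4.17 on control arrays. The groups did not overlap and control array 2 was the highest, and the difference of −0.80 (SE 0.25) was −0.53 without that array. The other Lrp1 probe, designed on a cDNA clone and with processed signals of 13.5 to 46.6 on antagomir arrays and 26.9 to 30.9 on control arrays, gave −0.069 (SE 0.42). Ncl had levels of 5.02, 4.91 and 4.72 on antagomir arrays, against 4.88, 4.91 and 4.98 on control arrays. Its difference of −0.035 (SE 0.14) had a 95% interval of −0.38 to 0.31, the narrowest of the members, and was 0.047 (SE 0.16) on its other probe.

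Ptprz1, the phosphatase receptor, gave different values by probe. The probe used had levels of −2.30, −2.20 and −1.63 on antagomir arrays and −2.56, −1.40 and −1.83 on control arrays, a difference of −0.11 (SE 0.35). A neighbouring probe on the same transcript gave −0.64 (SE 0.35). The third probe, designed on a cDNA clone of neonatal cerebellum, had processed signals of 111, 15.9 and 18.6 on antagomir arrays and 2.90, 3.04 and 51.2 on control arrays. It was well above background on 2 antagomir arrays and 1 control array, and its difference of 2.29 (SE 1.37) ran opposite to the others. Alk was well above background on antagomir array 3 alone, with processed signals of 9.04, 7.47 and 40.5 on antagomir arrays and 9.24, 6.39 and 13.5 on control arrays, so no fold is given. Antagomir array 3 also had the largest share of all spots above background, and its part in the Alk signal was not tested.

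**Figure D2:**
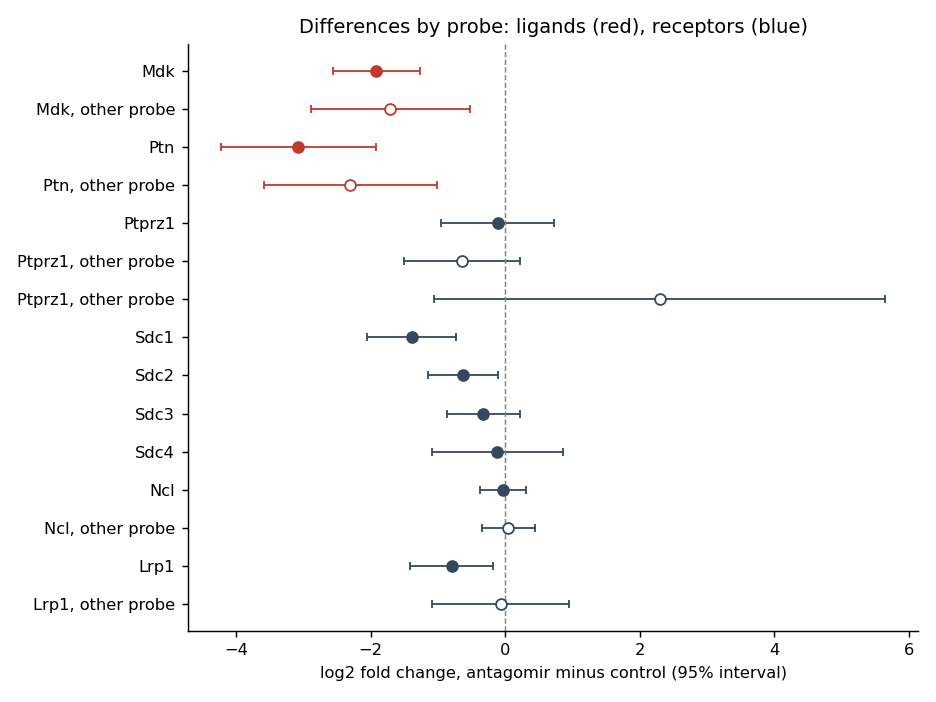
Log2 fold change, antagomir minus control, of every tested probe of the 9 genes with its 95% interval; ligands are red, receptors blue, and open symbols are further probes of the same gene. The 4 ligand probes lie between −3.07 and −1.71, while the receptor probes lie between −1.39 and 2.29.

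All 9 tested members had a negative difference, against 37.4% of all genes, with a median of −0.62 against 0.09 over all genes. These all-gene values depend on scaling and filter. The median of all genes was −0.030 with quantile scaling or the authors' table, −0.38 with median scaling and 0.26 with no filter. All antagomir arrays were below all control arrays for 5 of the 9, against 6.93% of all genes, and the reverse held for 0 of the 9, against 8.78%. Across all genes limma called 3 at an adjusted p under 0.05 (0.013%), with 0 members among them. At an unadjusted p under 0.05 there were 5 members, against 7.21% of all genes, and these were 5 lower and 0 higher, against 4.16% and 3.05%. Because the members were chosen with this contrast in view, nothing is read from these shares.

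Set against each other, the ligands differed more than the receptors on every antagomir array. Relative to control means, the mean of Mdk and Ptn was −2.68, −2.60 and −2.20 on antagomir arrays 1, 2 and 3, and 0.095, 0.58 and −0.68 on control arrays 1, 2 and 3. The mean of the 7 tested receptors was −0.54, −0.46 and −0.46 on antagomir arrays, and −0.30, 0.45 and −0.15 on control arrays. Ligand minus receptor was therefore −2.13, −2.14 and −1.75 with the antagomir and 0.39, 0.13 and −0.53 in controls. The means of that quantity were −2.01 ± 0.22 and 0 ± 0.47 (SD), without overlap.

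Fibroblast markers were lower on the same arrays as the ligands. The mean of those 10 markers relative to controls was −1.87, −1.24 and −2.12 on antagomir arrays 1, 2 and 3, and −0.10, 0.43 and −0.32 on control arrays 1, 2 and 3. Markers and ligands had the same order over the control arrays, with array 2 highest and array 3 lowest, but not over the antagomir arrays. Of the 10 markers all were lower (median −1.88) and 6 did not overlap, against 6.93% of all genes. These 6 were Col1a1, Col1a2, Col3a1, Lum, Fn1 and Postn. Postn, a matricellular protein, was at −3.71 (SE 0.66). The groups overlapped for Pdgfra (−0.35, SE 0.21), Tcf21 (−0.53, SE 0.36) and Ddr2 (−0.37, SE 0.24). They also overlapped for Dcn, a general fibroblast proteoglycan, at −0.0016 (SE 0.17). Smooth muscle and pericyte markers were lower for 7 of 8 (median −0.56), 4 without overlap, against 6.93% of all genes. Their mean relative to controls was −0.53, −0.74 and −0.38 on antagomir arrays 1, 2 and 3, and −0.068, 0.29 and −0.23 on control arrays 1, 2 and 3, with control array 2 again highest and control array 3 lowest. All antagomir arrays were below all controls for 2 of 9 endothelial, 3 of 9 epicardial and mesothelial, and 0 of 10 macrophage markers. Cardiomyocyte markers were higher for 10 of 10 (median 0.22), 5 without overlap, against 8.78% of all genes. The part of these cell types in the ligand values was not tested. The arrays in the second row of the slide hold control array 3 and all antagomir arrays. Within that row, with a single control array, the differences were −1.49 for Mdk, −2.14 for Ptn, −0.92 for Sdc1, −0.58 for Lrp1, −0.48 for Sdc2 and −0.018 for Sdc3.

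**Figure D3:**
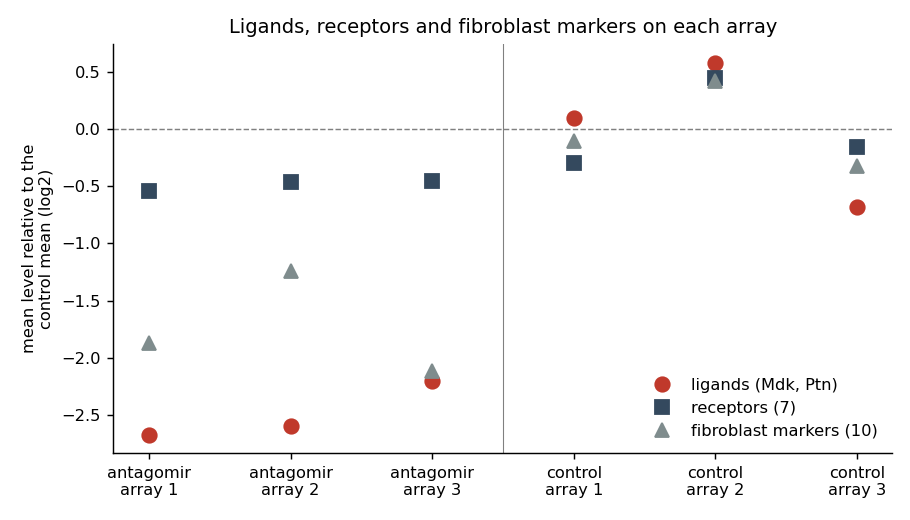
Mean level of the ligands, of the 7 tested receptors and of 10 fibroblast markers on each array, relative to each gene's control mean (log2), with antagomir arrays left of control arrays. On antagomir arrays the ligands lie between −2.68 and −2.20 and the receptors between −0.54 and −0.46.

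Sdc1 was the receptor whose pattern over the arrays was most like that of either ligand. Across the 6 arrays, which fall into the same groups, the Pearson correlation of levels was computed against 15487 other named genes, as a description. The genes most like Mdk were Cd200 (r = 0.995), a membrane glycoprotein, Nr2f2 (0.994), a nuclear receptor, Mmp2 (0.994), a gelatinase, Ankrd23 (0.993), a protein of the sarcomere, and Matn2 (0.993), a matrix adaptor. Their differences ran from −0.43 (Nr2f2) to −1.66 (Mmp2). The genes most like Ptn were Clca3a2 (0.995), C1qtnf3 (0.992), a secreted C1q-like protein, Nsun6 (0.989), an RNA methyltransferase, Slc16a9 (0.988), a monocarboxylate transporter, and Mmp14 (0.987), a membrane protease, with differences from −0.21 (Nsun6) to −3.86 (C1qtnf3). Among the members, Sdc1 ranked 8 in likeness to Ptn (r = 0.984) and 19 to Mdk (r = 0.985). Mdk and Ptn had r = 0.968 with each other, whereas Ptprz1, Sdc4 and Ncl had r between −0.069 and 0.27 with either ligand.

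Since Ptn and Sdc1 had similar patterns, the 250 bases before their start sites are shown (RefSeq, GRCm38.p6, Ptn on the minus strand at chr6:36810180-36810429 and Sdc1 on the plus strand at chr12:8771146-8771395). Capitals mark matches to TATAA or GGGCGG on either strand, overlapping matches joined.
Ptn promoter: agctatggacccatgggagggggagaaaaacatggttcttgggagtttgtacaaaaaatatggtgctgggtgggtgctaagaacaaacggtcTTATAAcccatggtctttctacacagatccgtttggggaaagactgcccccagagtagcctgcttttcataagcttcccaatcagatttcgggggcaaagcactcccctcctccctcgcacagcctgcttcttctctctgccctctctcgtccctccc
Sdc1 promoter: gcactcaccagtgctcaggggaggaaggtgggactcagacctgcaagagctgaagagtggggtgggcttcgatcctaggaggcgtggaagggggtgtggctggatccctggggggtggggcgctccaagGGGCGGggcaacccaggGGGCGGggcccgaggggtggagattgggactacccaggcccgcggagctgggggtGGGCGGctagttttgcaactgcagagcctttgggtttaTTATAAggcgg
The Sdc1 window held GGGCGG 3 times and the Ptn window 0 times, and 32.7% of 32851 promoters hold it in such a window. Both windows held TATAA, as do 22.8% of promoters, and neither held TGANTCA, the AP-1 letters, which 6.75% hold. The windows thus shared 1 of the 3 motifs searched, but at different places. The overlapping TATAA matches began 158 and 157 bases before the start site in Ptn, against 11 and 10 in Sdc1. G and C made up 52% of the Ptn window and 66% of the Sdc1 window.

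The enzymes that build chondroitin and dermatan sulphate, the chains by which Ptprz1 and related proteoglycans hold both ligands, were lower for 14 of the 15 genes tested (median −0.44). All antagomir arrays lay below all controls for 11 of the 15, against 6.93% of all genes, and limma called 0 (7 at an unadjusted p under 0.05, all lower, against 4.16% of all genes). Dsel, a dermatan sulphate epimerase, had levels of 0.56, 0.48 and 0.33 on antagomir arrays, against 1.27, 1.92 and 1.1 on control arrays, a difference of −0.97 (SE 0.24). Chpf2, a chain-lengthening factor, was at 0.81, 1.15 and 0.97 on antagomir arrays, against 1.47, 2.26 and 1.49 on control arrays, a difference of −0.77 (SE 0.26). The 1 gene with a positive difference, Chst13 (0.49, SE 1.13), was well above background on 1 antagomir and 2 control arrays.

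The enzymes of heparan sulphate were evenly split, with 10 lower and 11 higher of 21 tested (median 0.0023). Without overlap there were 3 lower and 2 higher, against 6.93% and 8.78% of all genes. This list also held the enzymes of the linker that heparan and chondroitin sulphate chains share, which the chondroitin list did not. Sulf1, an extracellular sulphatase that trims heparan sulphate, had levels of 2.08, 2.52 and 1.68 on antagomir arrays, against 2.75, 3.94 and 2.91 on control arrays, a difference of −1.11 (SE 0.38). Ext2, a heparan sulphate polymerase, was at −3.27, −3.24 and −1.99 on antagomir arrays, against −3.58, −3.36 and −3.59 on control arrays, a difference of 0.68 (SE 0.37). Antagomir array 3 was far above the other arrays for Ext2. The processed signals of Ext2 were 37.3, 38.4 and 100 on antagomir arrays and 37.0, 44.5 and 34.9 on control arrays. Before scaling, antagomir arrays 1 and 2 thus lay within the range of the controls.

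Of 10 other heparan sulphate proteoglycans tested, 6 were lower and 4 higher (median −0.30), with 1 in each direction free of overlap, against 6.93% lower and 8.78% higher among all genes. Col18a1, a basement membrane collagen with heparan sulphate, was at −0.18, 0.48 and −0.18 on antagomir arrays, against 1.16, 2.08 and 0.71 on control arrays, a difference of −1.28 (SE 0.39). Gpc1, a glypican, was at 7.47, 7.46 and 7.54 on antagomir arrays, against 7.25, 6.82 and 7.28 on control arrays, a difference of 0.37 (SE 0.17).

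Other reported binding partners of the ligands or of their receptors, among them integrins, were lower for 11 of 14 tested (median −0.14). Of these, 4 were without overlap, all of them lower, against 6.93% of all genes. Vcan, or versican, a large chondroitin sulphate proteoglycan, had levels of −1.27, −0.056 and −1.17 on antagomir arrays, against 0.33, 1.54 and 0.15 on control arrays, a difference of −1.50 (SE 0.49). Notch2 was at 1.15, 1.19 and 0.90 on antagomir arrays, against 1.32, 1.90 and 1.48 on control arrays, a difference of −0.49 (SE 0.20). Ptprg, the phosphatase closest to Ptprz1 in structure, had a difference of −0.38 (SE 0.19) without overlap, and was picked after its value was seen.

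Syndecan partners and sheddases were lower for 11 of 13 (median −0.29), 3 without overlap, against 6.93% of all genes. They included Mmp14, a protease that sheds syndecan ectodomains (−0.78, SE 0.16), and Actn4, an actin crosslinker (−0.61, SE 0.23). Ligands and partners of Lrp1 were lower for 12 of 15 (median −0.33), 5 without overlap, against the same 6.93%. Among them were Ccn2, connective tissue growth factor, at −1.37 (SE 0.50) and Dab2, an endocytic adaptor, at −0.85 (SE 0.25). Ccn2 stood at 5.07, 4.95 and 5.03 on antagomir arrays, against 5.79, 7.58 and 5.79 on control arrays, so control array 2 was far above the other controls.

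Signalling genes downstream of Alk and Ptprz1 were higher for 11 of 15 (median 0.07), near the median of all genes. The 1 without overlap, higher as were 8.78% of all genes, was Pik3r1, a regulatory subunit of PI3 kinase (0.36, SE 0.18), and the adaptor Shc1 was at −0.33 (SE 0.18). Nucleolar partners of nucleolin were higher for 7 of 10 (median 0.13), all overlapping, with the largest values for Ubtf (0.34, SE 0.20) and Polr1a (0.27, SE 0.19). In these lists limma called 0 genes, and 0 in all the lists above. At an unadjusted p under 0.05 there were 2 binding partners, 1 other heparan sulphate proteoglycan, 3 heparan sulphate enzymes, 2 syndecan partners and 5 Lrp1 partners, all lower, and 0 in the signalling and nucleolar lists. Among all genes, 4.16% were lower and 3.05% higher at that p.

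**Figure D4:**
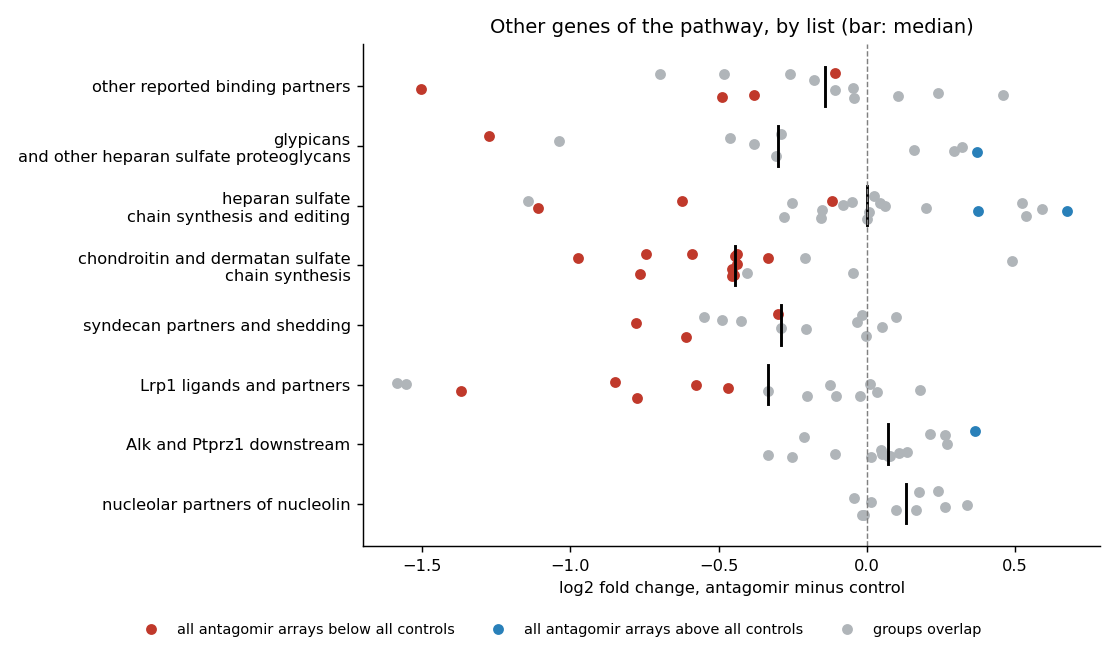
Log2 fold change, antagomir minus control, of each tested gene in 8 lists of related genes; black bars are list medians and colours show whether the groups overlap. The chondroitin and dermatan sulphate list has 11 of 15 genes with all antagomir arrays below all controls, and the signalling and nucleolar lists lie near 0.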

How the data were processed

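Hearts were measured on 1-colour Cy3 Agilent arrays, 3 antagomir and 3 control. Per the file headers, the scanner files were made with Feature Extraction 10.7.1.1 on an mm9 design. Their processed signals are intensities, corrected for background and detrended within each array, not normalised between arrays. The other columns used from the deposited files are 0 or 1 spot flags and mean and background intensities. The authors' deposited table holds raw intensities and normalised log2 values, by a method not given in the sources used here.

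Here control spots and outlier spots were left out and spots of a probe averaged on the log2 scale. Each array was scaled to its 75th percentile. A probe was kept where 3 or more of the 6 arrays had it well above background, and the brightest probe stood for its gene (22998 genes, named through GRCm38.p6 accessions and symbols). The test was limma's (version 3.58.1, R 4.3.3), with Benjamini-Hochberg adjustment over all genes and a threshold of 0.05. Tables were made with pandas 2.3.3 and numpy 2.4.6, and figures with matplotlib 3.10.9, under Python 3.11.15. Only the limma test with its adjustment was tried on simulated data, not the reading, scaling, filter, probe choice or naming.

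Depth on arrays is signal over background, and the number of arrays limits precision. The members and lists were chosen with earlier results of these data known. Besides the members, the genes named are the 2 of each list with the largest difference without overlap (or the largest where fewer) and the 5 most like each ligand by correlation. The fibroblast markers besides Postn and Dcn are named to complete their list. Any other gene was picked after its value was seen: Jchain, Postn, Dcn, Chst13 and Ptprg. Alternatives covered background correction, scaling, the authors' table, filters, probe choice, variance model, array weights, replicate number and slide row as blocks, and each array left out.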

Additional observations from a re-analysis of the deposited data

How the results depend on the processing

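Mdk, Ptn, Sdc1, Sdc2, Sdc3 and Lrp1 kept a negative difference under every alternative run, with Mdk between −2.38 and −1.49, Ptn between −3.55 and −2.14, Sdc1 between −1.86 and −0.92, Sdc2 between −1.1 and −0.34, Sdc3 between −0.79 and −0.018, and Lrp1 between −1.27 and −0.069. The values nearest 0 were those with array weights for Sdc2, with slide row as block for Sdc3 and on the other probe for Lrp1, which was −0.43 with the mean of its probes. Ligand minus receptor ranged from −2.27 to −1.81 with 1 array left out, and was −1.58 with normexp and quantile scaling and −1.48 when slide row was a block. Members lower numbered 6 to 9. Ptprz1 was positive with the mean of its probes (0.51), with array weights (0.19), without antagomir array 1 (0.017), without control array 2 (0.16) and on probe A_55_P2173682 (2.29), and ranged from −0.43 to 0.16 with 1 array left out. Sdc4 was positive with array weights (0.23), without antagomir array 1 (0.029) and without control array 2 (0.26), with a leave-one-out range of −0.45 to 0.26. Ncl was positive with the mean of its probes (0.0061), with array weights (0.055), without antagomir array 3 (0.046) and on its other probe (0.047), with a leave-one-out range of −0.10 to 0.046. Genes called over the whole array numbered 3, and 1 with quantile scaling, the authors' table or no filter, 0 with normexp, above background on all 6 arrays, the replicate block or slide row as block, 8 with array weights, 0 to 3 with 1 array left out (0 without any 1 of the control arrays) and 199 with median scaling. Median scaling moved the median of all genes to −0.38, against 0.09. The 199 include Mdk (−2.38) and Ptn (−3.55), given as a description since this contrast chose the members. With median scaling the SE was 0.60 for every tested member, so it did not follow each gene's own spread. Under the scaling used throughout, these SEs ran from 0.14 for Ncl to 0.47 for Ptn. The parts of the shifted median and of this common SE in the 199 calls were not tested. The other alternatives called no member. The causes were not tested. Same-numbered arrays share only a number (deviations from group means correlated at 0.22, 0.14 and −0.049 over genes). The replicate block, with 1 array of each group per number, and the variance model cannot move a difference, only its SE. Their unchanged values, with ligand minus receptor at −2.01, are therefore no check of the differences. With the block the SE was 0.20 for Sdc4, against 0.40, and 0.53 for Ptn, against 0.47. The other filters also left the tested members' differences as they were. Signal over background limits Alk, that Ptprz1 probe and the dim Lrp1 probe.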

Other observations

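Antagomir array 2 differed from the other antagomir arrays in its immune markers, and also in its epicardial and mesothelial markers. The mean of 6 T and NK cell markers, relative to controls, was −0.76, 3.37 and 0.43 on antagomir arrays 1, 2 and 3, and 0.11, −0.0066 and −0.10 on control arrays 1, 2 and 3. That of 10 macrophage markers was −0.49, 0.63 and −0.58 on antagomir arrays and 0.039, −0.026 and −0.014 on control arrays. For 9 epicardial and mesothelial markers it was −0.50, 0.97 and −1.25 on antagomir arrays and 0.090, 0.50 and −0.59 on control arrays. The ligand mean on antagomir array 2 (−2.60) lay between those of the other antagomir arrays (−2.68 and −2.20).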
